A study of Mus musculus with 4 samples.

Results

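Interferon-stimulated genes are the genes that a cell switches on after interferon binds its receptor. The set described here holds 41 such mouse genes, chosen by name, and all 41 were found by symbol among the 32285 genes of the count matrices. The measurement was single-cell RNA sequencing of islets taken from male mice at 8 weeks, and each of the 4 groups is a single library. The first pair of libraries came from mice with the genotype Tet2(flox/flox)Tet3(flox/flox), either Pdx1 cre- (here Cre-negative) or Pdx1 cre+ (Cre-positive), so the floxed alleles were carried by both. The second pair came from the offspring of a control model and from those of an intrauterine hyperglycemia model (control offspring and IHG offspring). Tet2 and Tet3 encode dioxygenases of DNA demethylation. Pdx1 is a transcription factor of the pancreatic epithelium, from which endocrine cells arise and endothelial cells and macrophages do not. The labels do not say how many mice stood behind a library. Islets had been held in culture medium before they were dissociated, per the labels' protocols.

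Type I interferon binds the receptor made of Ifnar1 and Ifnar2, whose kinases Jak1 and Tyk2 phosphorylate Stat2. Stat2 and Irf9 are parts of a complex that binds the interferon-stimulated response element in the promoters of its target genes. Interferon-gamma acts through Ifngr1 and Ifngr2, and its target promoters hold the gamma activation site. Many of the induced proteins sense viral RNA or DNA (the helicases Ddx58 and Ifih1, and Zbp1), stop translation or degrade RNA (the Ifit, Eif2ak2 and Oas proteins), or hold back the release of virus (Bst2), and others restrain the response (Usp18). In islets, interferon signalling is known for its place in viral infection of beta cells and in autoimmune diabetes.

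After cells with under 500 genes or over 20% mitochondrially encoded UMIs and likely doublets had been removed, the 4 libraries held 5557 to 14726 cells, with medians of 5349 to 7687 UMIs per cell. A UMI is a molecular barcode that counts 1 captured transcript. Cells were clustered without the interferon genes and grouped into classes by marker genes, among them beta-like (insulin, 2609 to 10447 cells per library), alpha-like (glucagon), delta-like (somatostatin), endothelial-like and macrophage-like cells. Endothelial-like cells were 3.76% of the Cre-negative and 19.3% of the Cre-positive cells kept, and macrophage-like cells 1.06% and 7.58%. The Cre-negative library held 209 endothelial-like and 59 macrophage-like cells, which limits the precision of these classes there. Tet2 was at 46.7 counts per 1000000 UMIs of the class (CPM) in Cre-negative and 33.1 CPM in Cre-positive beta-like cells, and Tet3 at 34.2 and 26.1 CPM. The tags lie at the 3′ end and may fall outside the deleted part, so these levels check nothing about the deletion. Each value below comes from 1 library per group. Ratios carry 95% intervals of counting error only, and no difference could be tested against the spread between animals.

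Promoters from RefSeq (GRCm38.p6; 250 bases before to 50 bases after the start, 300 bases in all) were found for 32 of the 41 genes. The interferon-stimulated response element was searched on both strands as GAAA, any 2 bases and GAAA again, and overlapping matches were kept. It was present in 18 of the 32 promoters (56.2%), against 3.99% of 27025 genes with a promoter in the table. Those 18 genes were Bst2, Cxcl10, Ddx58, Eif2ak2, Gbp2, Gbp3, Ifi203, Ifih1, Ifit1, Ifit3, Ifitm3, Igtp, Isg15, Oas1a, Oas3, Rsad2, Stat2 and Trim30a. The gamma activation site, searched as TTCNNNGAA on both strands (N is any base), was present in 8 of 32 (25%), against 9.55% of genes; these were Bst2, Eif2ak2, Ifi35, Ifit2, Ifitm3, Igtp, Irf1 and Oas1a. A match is a description of letters and not a bound site, and no match says only that these letters are not in this window. The plot of match positions shows where the response element lies in each of the 18 promoters.

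**Figure D1:**
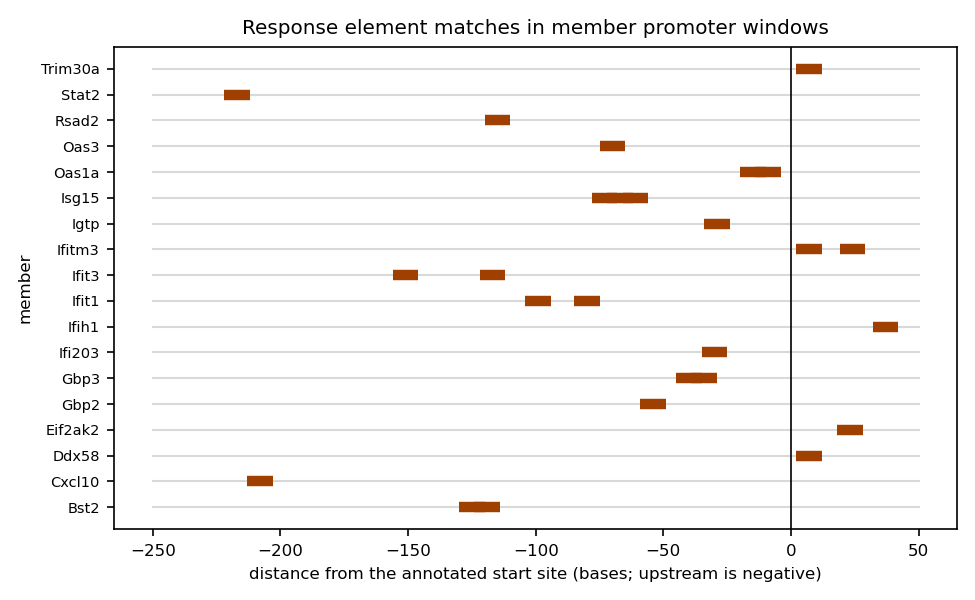
Positions of response element matches (bars) in the promoters of the 18 members that hold one, as distance in bases from the transcription start (x axis), 1 row per gene and the first window where a gene has several. Matches lie on both sides of the start: those of Ifit1 begin 104 and 85 bases before it and that of Cxcl10 213 bases before it, while those of Ddx58, Eif2ak2, Ifih1, Ifitm3 and Trim30a begin after it.

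The bases before the start are shown for 8 genes on which the results below turn, 5′ to 3′ on the strand of the gene. Capitals mark a match of the response element, or its reverse complement, in the first 5, and a match of TTCNNNGAA in Irf1. Ifit1 (chr19:34640639-34640888, plus strand), Ifit3 (chr19:34583279-34583528, plus) and Rsad2 (chr12:26456453-26456702, minus) hold the element in reverse orientation, and Isg15 (chr4:156200819-156201068, minus) and Oas1a (chr5:120907526-120907775, minus) hold it as overlapping matches in forward orientation. Irf1 (chr11:53769764-53770013, plus) has the gamma activation site and no response element in this window, which is 1 of its 2 windows in the table. Cmpk2 (chr12:26468965-26469214, plus) and Trim25 (chr11:88999153-88999402, plus), which were lower in Cre-positive beta-like cells, hold neither. Oasl2 and Irf9, which were higher there and are not shown, hold neither as well, and Usp18, also higher, had no promoter in the table. Eif2ak2, which was lower in Cre-positive alpha-like cells, holds both. A link between these letters and the direction was not tested.
Ifit1: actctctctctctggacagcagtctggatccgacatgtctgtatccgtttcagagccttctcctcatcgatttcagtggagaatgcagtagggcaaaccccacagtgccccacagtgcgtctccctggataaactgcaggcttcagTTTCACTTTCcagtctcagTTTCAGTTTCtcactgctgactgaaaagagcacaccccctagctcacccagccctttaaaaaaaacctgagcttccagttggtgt
Ifit3: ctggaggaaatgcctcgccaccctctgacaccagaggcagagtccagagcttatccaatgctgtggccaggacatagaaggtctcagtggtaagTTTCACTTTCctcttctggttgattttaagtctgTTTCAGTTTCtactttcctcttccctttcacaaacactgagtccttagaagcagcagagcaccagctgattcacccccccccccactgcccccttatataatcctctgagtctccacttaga
Isg15: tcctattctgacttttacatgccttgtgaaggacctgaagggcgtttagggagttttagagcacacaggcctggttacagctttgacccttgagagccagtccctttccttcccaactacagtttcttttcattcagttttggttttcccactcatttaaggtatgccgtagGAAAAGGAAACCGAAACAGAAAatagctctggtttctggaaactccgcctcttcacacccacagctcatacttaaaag
Rsad2: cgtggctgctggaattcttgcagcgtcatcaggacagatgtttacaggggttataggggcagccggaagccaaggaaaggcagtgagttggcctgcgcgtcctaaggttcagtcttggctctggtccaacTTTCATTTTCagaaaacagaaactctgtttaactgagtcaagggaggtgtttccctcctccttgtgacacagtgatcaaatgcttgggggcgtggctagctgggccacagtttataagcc
Oas1a: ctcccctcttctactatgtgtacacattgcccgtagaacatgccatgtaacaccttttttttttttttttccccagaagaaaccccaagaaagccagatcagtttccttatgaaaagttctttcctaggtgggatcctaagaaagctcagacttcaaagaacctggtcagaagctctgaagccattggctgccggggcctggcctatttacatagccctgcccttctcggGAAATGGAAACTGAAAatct
Irf1: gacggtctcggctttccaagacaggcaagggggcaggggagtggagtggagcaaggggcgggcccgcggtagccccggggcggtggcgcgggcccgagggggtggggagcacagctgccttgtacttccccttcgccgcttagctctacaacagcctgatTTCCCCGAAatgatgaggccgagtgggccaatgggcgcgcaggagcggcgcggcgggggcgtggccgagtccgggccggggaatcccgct
Cmpk2: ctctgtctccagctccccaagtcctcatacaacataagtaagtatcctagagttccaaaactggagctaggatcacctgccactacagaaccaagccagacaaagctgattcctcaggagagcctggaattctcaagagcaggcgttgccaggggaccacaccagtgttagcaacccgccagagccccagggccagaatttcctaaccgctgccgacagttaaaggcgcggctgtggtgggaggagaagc
Trim25: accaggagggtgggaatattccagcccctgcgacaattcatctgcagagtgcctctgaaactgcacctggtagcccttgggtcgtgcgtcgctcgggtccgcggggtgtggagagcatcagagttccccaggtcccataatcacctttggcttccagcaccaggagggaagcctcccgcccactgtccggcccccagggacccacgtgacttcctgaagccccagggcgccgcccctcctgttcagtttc

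A core of 18 genes (Ifit1, Ifit2, Ifit3, Isg15, Rsad2, Oasl1, Oasl2, Oas1a, Oas2, Oas3, Irf7, Usp18, Cmpk2, Rtp4, Ifi44, Zbp1, Herc6 and Cxcl10) was summed, and was later used to mark single cells; the other 23 were kept apart. Among the 5 classes described here the summed core level was highest in endothelial-like cells in the Cre-negative, Cre-positive and IHG offspring libraries, and in macrophage-like cells in the control offspring library, where 5 fibroblast-like cells held 22 core UMIs (2851 CPM). In endothelial-like cells it was 1411 CPM in the Cre-negative, 2707 in the Cre-positive, 689 in the control offspring and 532 in the IHG offspring library. Macrophage-like cells held 283, 2085, 1198 and 456 CPM in that order. Beta-like cells held 70.9, 153, 82.1 and 58.3 CPM, alpha-like cells 46.5, 131, 85.4 and 52.2 CPM, and delta-like cells 86.1, 287, 96.4 and 75.6 CPM. The Cre-positive library stood highest of the 4 in all 5 classes, and the IHG offspring library lowest in beta-like, delta-like and endothelial-like cells. The plot of summed core levels shows both orders.

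**Figure D2:**
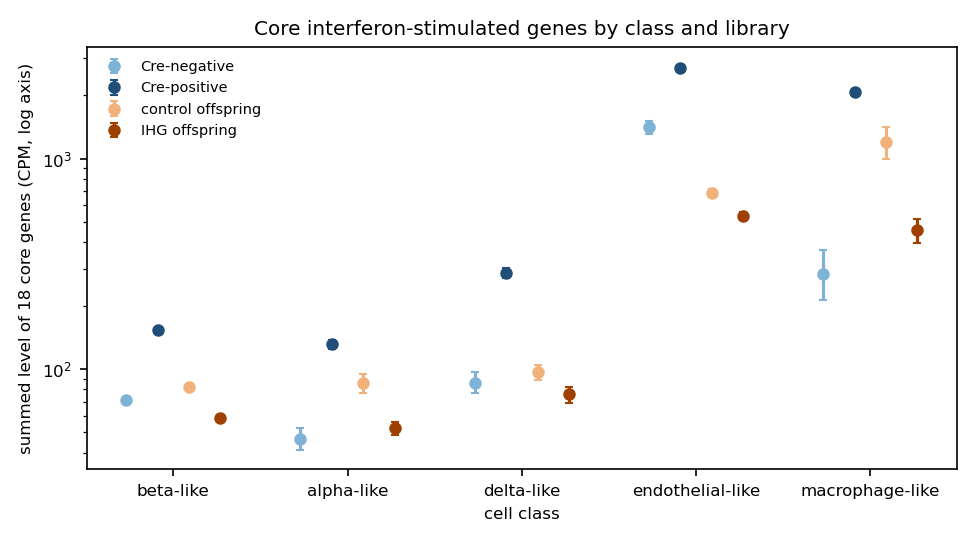
Summed level of the 18 core interferon-stimulated genes in CPM (y axis, log scale) in 5 cell classes, 1 point per library; bars are exact Poisson 95% intervals of the counts. The Cre-positive points lie above the others in each class, from 131 CPM in alpha-like to 2707 CPM in endothelial-like cells.

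The sums rested on few genes, which differed between classes. In endothelial-like cells Rsad2, the antiviral radical SAM enzyme viperin, gave 55.4% of core UMIs in the Cre-negative and 23.7% in the Cre-positive library. In beta-like cells Cmpk2, a mitochondrial nucleotide kinase, gave 56.4% of core UMIs in the Cre-negative library, while in the Cre-positive library Ifit1 led with 16.3%. In control offspring macrophage-like cells Cxcl10, a chemokine that attracts T cells, gave 69.8%. The sum of all 41 genes was dominated in beta-like cells by Lgals3bp, a secreted glycoprotein, with 36.4% to 54.4% of its UMIs, so the core sum is given beside it throughout.

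The comparison of the Cre-positive with the Cre-negative library asked how islet cells with floxed Tet2 and Tet3 differed in the presence of Pdx1 cre. In beta-like cells the Cre-positive core sum was 2.15-fold higher (2.05 to 2.26), while the sum of all 41 was 1.11-fold higher (1.09 to 1.13) and that of the other 23 was 1.01-fold lower (0.987 to 1.03). A gene was counted where it reached 20 CPM in at least 1 of the 2 libraries and differed by 1.5-fold or more. Of the 41 genes 12 reached that level in beta-like cells, and 5 of these were higher and 2 lower, while 29 stayed under it. Over all 6462 genes at that level, 6.93% were higher and 20.4% were lower. A gene can pass the level through the library in which it is high, so these counts describe the libraries and test nothing. Of the 38 members with over 3 UMIs the counting interval lay above 1 for 23 and below 1 for 4, against 19.4% above and 44.2% below over 16074 genes. The median log2 ratio of the 12 was 0.32, against -0.22 over all genes at that level.

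Among the transcription factors of the set, Irf1, which is induced by interferon-gamma and other cytokines, was at 34.8 CPM in the Cre-negative, 93.9 in the Cre-positive, 40.3 in the control offspring and 37.0 in the IHG offspring library in beta-like cells. The Cre-positive library stood apart and the other 3 lay within 34.8 to 40.3 CPM, a 2.70-fold difference within the Cre pair (2.52 to 2.89). Irf9, the DNA-binding partner of Stat2, was at 13.2, 40.9, 13.4 and 10.5 CPM in the same order, 3.10-fold higher (2.78 to 3.46). Stat2 was at 16.5, 24.7, 16.9 and 15.3 CPM, and its ratio of 1.5 (1.34 to 1.67) fell just short of the fold rule. Irf7, the factor that amplifies type I interferon production, stayed low at 1.51, 10.8, 1.74 and 1.21 CPM, 7.15-fold higher (5.30 to 9.82) in the Cre-positive library.

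Oasl2, an oligoadenylate synthetase-like protein, had the largest ratio of the genes at 20 CPM or more. It was at 0.724 CPM in the Cre-negative, 21.9 in the Cre-positive, 5.39 in the control offspring and 3.53 in the IHG offspring beta-like cells, 30.3-fold higher (20.2 to 47.6) within the Cre pair. The Cre-negative library was the low one here: both offspring libraries lay above it. Oas1a and Oas2, synthetases that activate RNase L, were below 5 CPM in all 4 libraries, at 0.211 and 4.42 CPM (Oas1a) and at 0.241 and 4.39 CPM (Oas2) in the Cre pair. Ifit1, which binds viral RNA that lacks the host cap methylation, was at 4.65, 24.9, 7.19 and 3.62 CPM, 5.36-fold higher (4.5 to 6.41). Ifit3, its partner, was at 2.90, 8.56, 2.40 and 1.38 CPM. Usp18, the protease that removes Isg15 and blocks the type I receptor, was at 10.9, 22.5, 13.4 and 15.2 CPM, 2.06-fold higher (1.82 to 2.35). Isg15 itself was nearly unmeasured in beta-like cells, at most 0.376 CPM in any library.

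The role group listed as virus entry and release also holds the nucleotide kinase Cmpk2 and Rtp4. Of this group Cmpk2 went the other way. It was at 40.0 CPM in the Cre-negative, 18 in the Cre-positive, 23.7 in the control offspring and 17.8 in the IHG offspring library, 2.22-fold lower (2.02 to 2.46) within the Cre pair, so that the Cre-negative library was the one apart. Rtp4, a receptor transport protein, was at 1.84, 18.6, 2.27 and 0.901 CPM, 10.1-fold higher (7.75 to 13.4) though under 20 CPM, and Bst2, the tether of budding virus, at 2.32, 13.1, 1.84 and 1.53 CPM. Rsad2 was at 3.47, 11.8, 17.8 and 9.66 CPM, with control offspring above the Cre-positive library. Trim25, the ubiquitin ligase that acts on Ddx58, was at 73.6, 40.8, 43.7 and 39.8 CPM, 1.80-fold lower (1.69 to 1.93), again with Cre-negative apart from the other 3. The sensor Ddx58 was at 23, 23.8, 11.1 and 9.93 CPM, a ratio of 1.04 in the Cre pair with an interval that holds 1 (0.935 to 1.15). The kinase Eif2ak2 was at 23.4, 16.0, 16.5 and 15.2 CPM, 1.47-fold lower (1.31 to 1.64).

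The remaining groups showed smaller ratios or low levels. Lgals3bp, with the most UMIs of the set, was at 395 CPM in the Cre-negative, 292 in the Cre-positive, 223 in the control offspring and 252 in the IHG offspring beta-like cells, 1.35-fold lower (1.32 to 1.39) in the Cre-positive library. Dtx3l, an E3 ligase that works with Parp9, was at 21.1, 22.0, 17.7 and 17.7 CPM, and the gene overlaps Parp9 on the other strand, so reads may be shared. Among the GTPases, Igtp was at 5.07, 5.99, 6.63 and 5.37 CPM and Gbp3 at 0.784, 3.67, 0.198 and 0.134 CPM. Ifitm3, which blocks viral fusion and had the most UMIs of the entry and release group over all cells, was at most 3.45 CPM in beta-like cells. Xaf1, a proapoptotic factor, was at 2.59, 15.4, 3.5 and 2.65 CPM. Trim30a, Ifi203, Ifi204, Ifi27l2a, Zbp1, Ifit2, Oas3 and Gbp2 were each at 0.564 CPM or less in all 4 libraries.

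The genes past the rule lie at these places in GRCm38 (GENCODE annotation): Ifit1 (ENSMUSG00000034459) at chr19:34640871-34650009, Oasl2 (ENSMUSG00000029561) at chr5:114896936-114912234, Irf1 (ENSMUSG00000018899) at chr11:53770014-53778374, Irf9 (ENSMUSG00000002325) at chr14:55603571-55610030, Usp18 (ENSMUSG00000030107) at chr6:121245906-121270917, Cmpk2 (ENSMUSG00000020638) at chr12:26469204-26479837 and Trim25 (ENSMUSG00000000275) at chr11:88999376-89020293. All 7 values are UMIs of whole genes. Those of Ifit1, and of Ifit3 and Oas1a, which are not among the 7, may hold reads of near-identical neighbours.

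The Cre pair filled different clusters of beta-like cells: cluster 5 held 2900 of 3125 Cre-negative cells and cluster 6 held 2149 of 2609 Cre-positive cells. In the cluster both shared most (130 and 270 cells) the core was at 61.2 CPM (49.8 to 74.6) and 236 CPM (218 to 255), a log2 ratio of 1.94 (1.64 to 2.27) against 1.11 over all beta-like cells, and the sum of all 41 had a log2 ratio of 0.98 there against 0.15. Markers of other cells also moved with the library. The 8 endothelial markers summed to 10.5 CPM in Cre-negative and 25.4 CPM in Cre-positive beta-like cells, and the 9 macrophage markers to 9.14 and 15.2 CPM. The summed core was 1411 CPM in Cre-negative endothelial-like cells themselves, in which the same 8 markers summed to 26329 CPM. Cells that held UMIs of 2 or more endothelial, macrophage or lymphoid markers made up 3.84% (Cre-negative) and 15.4% (Cre-positive) of the class, and the log2 ratio of the core without them was 1.15 against 1.11 over all cells. Endothelial-like and macrophage-like cells also took a larger share of the Cre-positive library, and the part of free RNA in the beta-like values was not tested.

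Alpha-like and delta-like cells of the Cre-positive library also held more core transcripts. The core was 2.82-fold higher (2.48 to 3.22) in alpha-like and 3.34-fold higher (2.93 to 3.80) in delta-like cells. In alpha-like cells 12 members reached 20 CPM, of which 7 were higher (Ifit1, Irf1, Irf9, Stat2, Bst2, Usp18 and Ddx58) and 1 was lower (Eif2ak2), against 4.70% higher and 37.9% lower over 6787 genes. In delta-like cells 19 reached it, of which 12 were higher (Ifit1, Ifit3, Oasl2, Irf1, Irf7, Irf9, Stat2, Bst2, Usp18, Xaf1, Ifih1 and Rtp4) and 1 was lower (Cmpk2), against 9.29% and 13.6% over 6919 genes. The median log2 ratio of the members was 0.66 in alpha-like cells (all genes -0.47) and 1.18 in delta-like cells (all genes -0.15). Bst2 was at 4.63 CPM in Cre-negative and 22.1 CPM in Cre-positive alpha-like cells, 4.76-fold higher (3.21 to 7.33), and Usp18 at 8.11 and 31.9 CPM, 3.93-fold higher (2.91 to 5.42). Ifit3 was at 8.64, 39.9, 5.11 and 6.37 CPM in delta-like cells of the 4 libraries, 4.61-fold higher (3.11 to 7.07) in the Cre pair and low in the other 3. Oasl2 had 0 UMIs in Cre-negative delta-like cells and stood at 21.2 CPM in the Cre-positive library, at least 23.7-fold higher with the 0 set to 3 UMIs per library. Eif2ak2 was at 28.1 and 15 CPM in alpha-like cells, 1.87-fold lower (1.5 to 2.34). In the 1 alpha cluster that both libraries shared, with 106 and 129 cells, the core had a log2 ratio of 0.70 (-0.09 to 1.54) against 1.5 over the class, and no delta cluster held 50 cells of both.

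Endothelial-like cells held most of the set. Of the 41 genes 35 reached 20 CPM, and 25 were higher and 0 lower in the Cre-positive library, against 14.7% higher and 29.9% lower over 7006 genes; 6 stayed under the level. The median log2 ratio of the 35 was 1.08, against -0.26 over all genes. The core was 1.92-fold higher (1.78 to 2.06) and the other 23 were 1.61-fold higher.

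Ifit1 was at 34.1 CPM in the Cre-negative, 222 in the Cre-positive, 30.2 in the control offspring and 17.2 in the IHG offspring library, 6.51-fold higher (4.15 to 10.9) in the Cre pair. Ifit2 was at 21.5, 145, 16.2 and 13.4 CPM and Ifit3 at 52.0, 258, 19.9 and 14.9 CPM. In all 3 genes the Cre-positive library was the high one and the other 3 did not pass 52.0 CPM. Oasl1, which limits Irf7 translation, was at 8.97, 80.3, 17.4 and 4.25 CPM, 8.96-fold higher (3.80 to 27.8), and Isg15, the ubiquitin-like modifier, at 23.3, 139, 44.9 and 24.3 CPM, 5.97-fold higher (3.46 to 11.3). Irf7 was at 48.4, 234, 26.5 and 27.6 CPM, 4.83-fold higher (3.30 to 7.36).

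Other endothelial members showed different orders of the 4 libraries. Irf1 was at 329.9, 515, 918 and 351 CPM, so control offspring stood highest and the Cre pair differed by 1.56-fold (1.34 to 1.82). Rsad2 was at 782, 642, 259 and 224 CPM, high in both floxed libraries and 1.22-fold lower (1.10 to 1.35) in the Cre-positive one. Bst2 was at 151, 476, 93.9 and 80.0 CPM, 3.16-fold higher (2.54 to 3.98), and Stat2 at 84.3, 250.1, 108 and 73.8 CPM, 2.97-fold higher (2.22 to 4.06). Ifitm3 was at 1126, 1785, 742 and 509 CPM, 1.59-fold higher (1.46 to 1.72), and Cmpk2, lower in beta-like cells, at 55.6, 128, 40.7 and 29.7 CPM, 2.29-fold higher (1.60 to 3.41). Igtp, a GTPase induced by interferon-gamma, was at 41.2, 102, 53.5 and 25.7 CPM, 2.47-fold higher (1.63 to 3.94). Trim30a at 179 and 182 CPM and Ifi203, a DNA sensor, at 427 and 457 CPM had ratios of 1.01 and 1.07 in the Cre pair.

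In macrophage-like cells all 41 genes reached 20 CPM in 1 of the libraries, 31 were higher and 1 was lower (Igtp), against 18.1% higher and 34.5% lower over 6782 genes. The counting interval lay above 1 for 25 of the 41 and below 1 for 0. Oas2, Parp14, Cmpk2, Gbp2, Gbp3 and Herc6 were counted as higher with intervals that hold 1. The core was 7.37-fold higher (5.65 to 9.81) and the other 23 were 1.84-fold higher, from 59 and 682 cells. Irf7 was at 15.4 CPM in the Cre-negative and 259 CPM in the Cre-positive library, 16.8-fold higher (5.71 to 81.7), and Ifit3 at 15.4 and 233 CPM, 15.1-fold higher (5.13 to 73.5). Isg15 had 0 UMIs in the 59 Cre-negative cells and stood at 98.7 CPM in the Cre-positive library, at least 6.40-fold higher. Cxcl10 was at 10.3, 128, 836 and 74.3 CPM, highest in the 49 control offspring cells. Igtp was at 41.1 and 17.5 CPM, 2.36-fold lower with an interval that holds 1 (0.938 to 5.22). Pericyte-like cells, with 29, 75, 26 and 176 cells, held 93.9, 972, 137 and 182 CPM of the core. The heat map of the members' ratios gives every gene at 20 CPM or more.

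**Figure D3:**
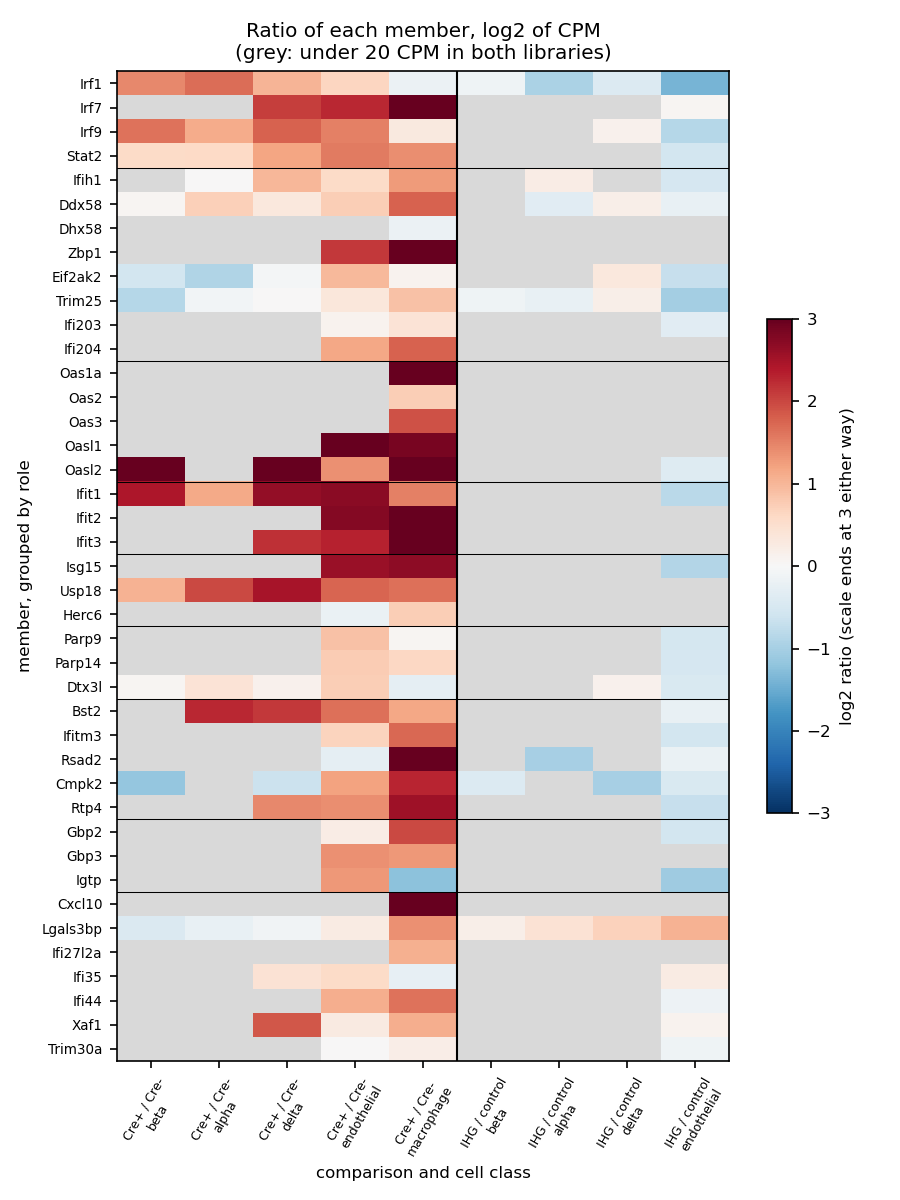
log2 ratio of each of the 41 members (rows) in 5 classes for the Cre-positive against the Cre-negative library and in 4 classes for IHG against control offspring (columns); colour gives the ratio, with the scale ending at 3, and grey marks members under 20 CPM in both libraries. The Cre columns are mostly on the higher side, with Cmpk2 and Trim25 lower in beta-like cells, while the IHG endothelial column holds 8 genes past 1.5-fold lower.

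The choice of scaling shifted all genes together. By CPM the median log2 ratio of all genes in the Cre pair was -0.22 (beta-like), -0.47 (alpha-like), -0.15 (delta-like), -0.26 (endothelial-like) and -0.25 (macrophage-like), and with median-of-ratios size factors it lay between -0.12 and 0.00. Of all genes past the fold rule 25.4% were higher in beta-like cells by CPM and 49.9% with size factors, 11% and 59.7% in alpha-like, 40.6% and 61.6% in delta-like, and 32.9% and 51.2% in endothelial-like cells. When hormone and mitochondrial genes were left out of the total, the alpha-like share was 44.6% and the delta-like share 26.6%. With size factors 7 members were higher and 2 lower in beta-like cells, 11 and 0 in alpha-like, 12 and 0 in delta-like, 27 and 0 in endothelial-like, and 31 and 1 in macrophage-like cells.

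To count cells with several core genes, each cell was thinned to 2000 UMIs and shallower cells were left out. A cell was called responding where 3 or more different core genes had a UMI. In beta-like cells 0 of 3046 Cre-negative cells (a count of 0 allows up to 0.0985% by 3 cells of the total, and 0.121% by the exact interval), 39 of 2507 Cre-positive cells (1.56%, 1.11 to 2.12), 18 of 10220 control offspring cells (0.176%, 0.104 to 0.278) and 3 of 5263 IHG offspring cells (0.0570%) responded. In endothelial-like cells the share was 22 of 107 (20.6%, 13.4 to 29.5), 299 of 903 (33.1%, 30.0 to 36.3), 79 of 723 (10.9%, 8.75 to 13.4) and 56 of 635 (8.82%, 6.73 to 11.3) in that order. In macrophage-like cells it was 2 of 44 (4.55%), 100 of 441 (22.7%, 18.8 to 26.9), 1 of 22 and 6 of 116 (5.17%, 1.92 to 10.9). The Cre-positive library had the highest share in these 3 classes at this depth and cut. Of the 22 Cre-negative endothelial-like cells 12 lay at the cut. Their 23 genes outside the core were 1.16-fold higher (1.02 to 1.31) than in remaining cells, with 0 of 20 intervals above 1. For these cells the name responding describes the core genes only. Delta-like cells responded in 33 of 706 Cre-positive cells (4.67%, 3.24 to 6.5) and in 1 of 1266 IHG offspring cells, with 0 of 508 and 0 of 918 in the other libraries. Alpha-like cells responded in 12 of 1392 Cre-positive cells (0.862%), with 0 in the other 3 libraries, and pericyte-like cells in 5 of 26 (Cre-positive) and 2 of 57 (IHG offspring).

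**Figure D4:**
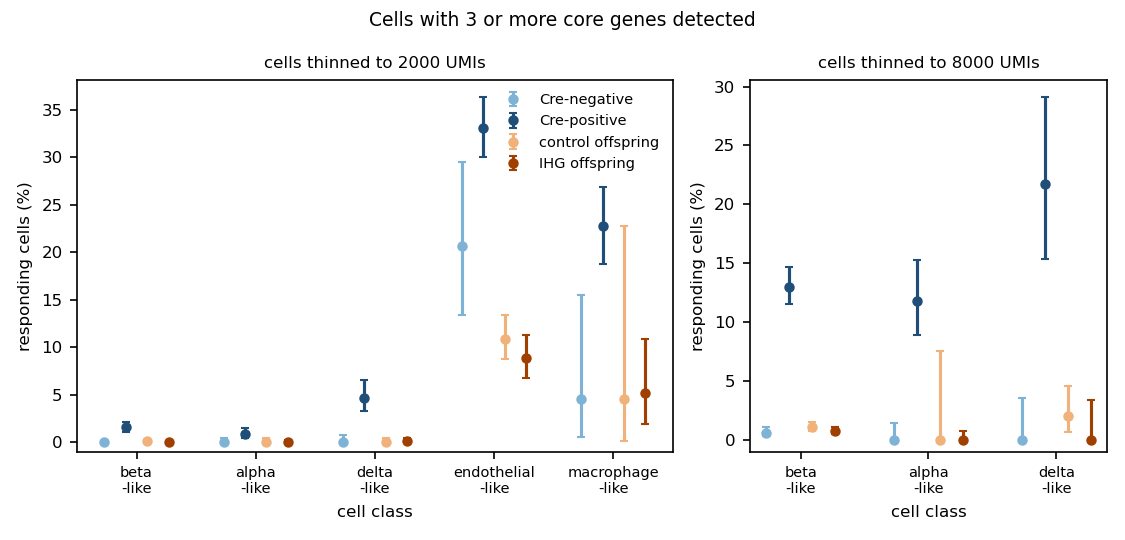
Share of responding cells in percent (y axis) per class and library, after thinning each cell to 2000 UMIs (left, 5 classes) or 8000 UMIs (right, 3 endocrine classes); bars are exact binomial 95% intervals. Cre-positive points lie highest in each class, at 33.1% in endothelial-like and 1.56% in beta-like cells at 2000 UMIs and 13% in beta-like cells at 8000 UMIs.

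The share depended on depth and on the cut. In Cre-positive beta-like cells 27 of the 39 lay at the cut and 95 more cells had 2 core genes, and in Cre-positive endothelial-like cells 55 of 299 lay at the cut and 123 had 2. The thinning left out 837 of 1740 Cre-positive and 102 of 209 Cre-negative endothelial-like cells. At 8000 UMIs, a depth chosen after the data had been seen, 13 of 2075 Cre-negative (0.627%), 244 of 1871 Cre-positive (13%, 11.5 to 14.7), 33 of 3015 control offspring (1.09%) and 27 of 3485 IHG offspring beta-like cells (0.775%) responded. The Cre-positive share was also the highest of the 4 at that depth in alpha-like cells (49 of 414, 11.8%) and delta-like cells (33 of 152, 21.7%). In endothelial-like cells, of which few are that deep, it was 20 of 33 (60.6%) against 20 of 32 (62.5%) in control offspring. Without thinning the beta-like shares were 1.63%, 16.8%, 1.52% and 1.34%. The order of the Cre pair of endothelial-like cells depended on the setting: the Cre-negative and Cre-positive shares were 43.0% and 46.7% with 2 core genes, 9.35% and 27% with 4, 8.15% and 23.8% at 1000 UMIs, 51.4% (19 of 37) and 49.4% (124 of 251) at 4000 UMIs, and 28.7% and 32.5% without thinning.

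The Cre-positive endothelial-like cells fell into a low and a high range of core genes. Of 903 cells 55 had 3 distinct core genes, 9 had 5, and 47 had 9, and the highest cell had 14. In all 212 cells (23.5%) had 6 or more, whereas 0 of the 107 Cre-negative cells did, where the highest cell had 5. The highest endothelial-like cell had 14 in the control offspring library too, and 9 in the IHG offspring library. Beta-like cells reached at most 2 core genes in the Cre-negative, 5 in the Cre-positive, 9 in the control offspring and 3 in the IHG offspring library. Of the 537 responding cells of the Cre-positive library 55.7% were endothelial-like, a class with 19.3% of its cells, 18.6% were macrophage-like and 7.26% beta-like. The other libraries held 25 (Cre-negative), 99 (control offspring) and 72 (IHG offspring) responding cells. When the interferon genes were kept among those used for clustering, separate clusters formed with 355 Cre-positive beta-like cells against 1, 18 and 6 cells of the other libraries, and with 345 Cre-positive endothelial-like cells against 0, 2 and 1. The interferon genes helped to form these clusters, so they give no separate reading. Without those genes cluster 6 already held 82.4% of the Cre-positive and 0.352% of the Cre-negative beta-like cells.

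Leaving the responding cells out turned the direction of the endothelial comparison. Responding cells held 86.9% of core UMIs of the Cre-positive endothelial-like cells at 2000 UMIs or more, and without them the Cre-positive library was slightly lower for the core (log2 ratio -0.12), against 0.94 with them. Cells under 2000 UMIs were not scored and stayed in the sums without responding cells, here 837 of 1740 Cre-positive cells. In scored remaining cells alone the core was at 1161 CPM (Cre-negative) and 562 CPM (Cre-positive). The core genes chose the responding cells, so the remaining cells are lower by construction. In macrophage-like cells the log2 ratio was 1.92 without responding cells and 2.88 with them, and 241 of 682 Cre-positive cells were not scored. Scored remaining Cre-positive cells were at 319 CPM, against 2085 CPM over their class. The whole Cre-negative class, with its responding cells kept, was at 283 CPM (213 to 368), from 55 core UMIs in 59 cells. The 319 and 283 CPM come from unlike sets of cells and are not a comparison of remaining cells. In beta-like cells the responding cells held 10.5% of core UMIs, and the log2 ratio was 0.97 without them and 1.11 with them.

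The 23 genes that did not mark the cells gave a separate reading. In Cre-positive endothelial-like cells they summed to 10965 CPM in the 299 responding and 2751 CPM in the 604 remaining cells, 3.99-fold higher (3.86 to 4.11), with 22 of 23 intervals above 1, against 8.23% of 11614 genes with over 3 UMIs. Bst2 was at 1202 and 140.3 CPM, 8.57-fold higher. Gbp3, a guanylate-binding GTPase, was at 203 and 9.79 CPM, 20.7-fold higher, and Igtp at 261 and 27.5 CPM, 9.48-fold higher. Irf1 (684 and 425 CPM, 1.61-fold) and Trim25 (208 and 137 CPM, 1.52-fold) differed least among those named. The depth of both sets of cells was similar, with medians of 3095 and 2886 UMIs, and the 8 endothelial markers summed to 27724 and 27376 CPM. Macrophage-like cells of the Cre-positive library showed the same order: 11247 CPM in 100 responding and 1950 CPM in 341 remaining cells, 5.77-fold higher (5.47 to 6.08), with 23 of 23 intervals above 1, against 8.70% of 9410 genes. The median depth was 2971 and 3036 UMIs. The macrophage markers were not level between these sets: Adgre1 was 1.62-fold and Lyz2 1.49-fold lower in responding cells, and Cx3cr1 1.57-fold higher. The 8 endothelial markers summed to 173 and 68.6 CPM, with Cdh5, Egfl7 and Emcn at 0 in responding cells, and 20 of the 100 held UMIs of 2 or more markers of other cells, against 11.9% of the class; the part of these in the result was not tested. There Stat2 was at 551 and 36.5 CPM, 15.1-fold higher, and Ifi204, an interferon-inducible DNA sensor, at 545 and 38.2 CPM, 14.3-fold higher.

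In Cre-positive beta-like cells the 23 genes summed to 1472 CPM in the 39 responding and 638 CPM in the remaining cells, 2.31-fold higher (2.14 to 2.49). Of 20 genes with over 3 UMIs 14 intervals lay above 1, against 3.43% of all 11704 genes with a ratio, and Ifi203 and Gbp2 had no ratio, with 0 UMIs in responding and 17 and 12 in remaining cells. Xaf1 was at 101 and 14.2 CPM (7.13-fold), Irf9 at 161 and 39.1 CPM (4.11-fold), Ddx58 at 92.3 and 22.6 CPM (4.08-fold) and Stat2 at 81.6 and 23.9 CPM (3.42-fold). Irf1, which was higher in the whole class, was 1.22-fold lower in responding cells (77.3 and 94.0 CPM, 0.877 to 1.74). The cells kept their beta markers, with Ins1 at a ratio of 1.09 and the 9 beta markers at 1.05. Markers of other cells were at a median of 0 UMIs per cell in both sets, which says little at sums this low. The endothelial markers summed to 12.9 CPM in responding and 25.3 CPM in remaining cells. The macrophage markers summed to 19.3 and 15.1 CPM, higher in responding cells. Of the 39 responding cells 5 held UMIs of 2 or more markers of other cells, against 15.4% of the class. The part of these cells in the result was not tested. The ratio of the 23 genes was 2.23 in 12 alpha-like and 2.39 (2.19 to 2.62) in 33 delta-like responding cells.

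**Figure D5:**
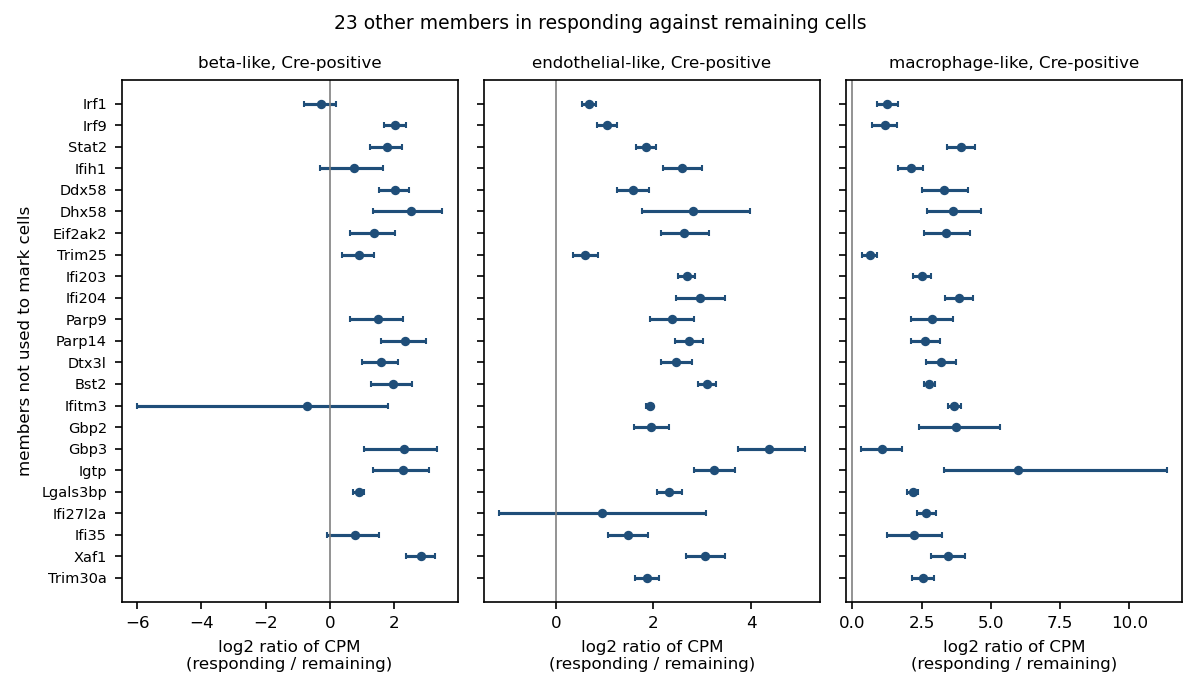
log2 ratio of each of the 23 members that were not used to mark cells (rows), responding against remaining cells of the Cre-positive library, in beta-like, endothelial-like and macrophage-like cells; bars are 95% intervals of counting error, and members at 3 UMIs or fewer or with 0 UMIs in 1 set are left out. All endothelial and macrophage points lie above 0, and Irf1 and Ifitm3 lie below 0 in beta-like cells with intervals that hold 0.

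Responding cells in the other libraries were fewer and not alike. In 22 responding and 85 remaining Cre-negative endothelial-like cells the 23 genes summed to 3791 and 3273 CPM, a ratio of 1.16 (1.02 to 1.31) with intervals above 1 for 0 of the 20 that had a ratio (2.17% of 7422 genes), and the ratio was 1.41 (1.33 to 1.5) in control offspring and 2.28 (2.12 to 2.45) in IHG offspring cells. The 18 responding beta-like cells of the control offspring library held 11.6% of its core UMIs, at 4717 CPM against 72.5 CPM in the remaining cells, and the 23 other genes were 4.89-fold higher there (4.37 to 5.46), with intervals above 1 for 15 of the 19 that had a ratio, against 3.53% of 9537 genes; Trim30a and Ifi203 had 0 UMIs in responding cells and no ratio. These cells held 3 to 148 core UMIs each (median 31.0), led by Rsad2 with 252 UMIs and Ifit1 with 116, and Cxcl10 had 95 UMIs in 7 of them. The 39 Cre-positive cells held 3 to 57 (median 12.0), led by Ifit1 with 113 and Oasl2 with 105 UMIs, and Cxcl10 had 0.

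The comparison of IHG with control offspring asked how islets of adult offspring differed after maternal hyperglycaemia. In beta-like cells the core was 1.41-fold lower (1.35 to 1.47) in IHG offspring, and the sum of all 41 was 1.03-fold lower (1.02 to 1.05), a difference that changed direction with the scaling (log2 ratio 0.02 with size factors). No member passed the fold rule: 4 of 41 reached 20 CPM (Irf1, Cmpk2, Trim25 and Lgals3bp), with 0 higher and 0 lower, against 0.382% higher and 0.747% lower over 5491 genes. Of 37 members with over 3 UMIs the counting interval lay above 1 for 2 and below 1 for 18, against 12.8% above and 30.7% below over 16254 genes. Rtp4, at 2.27 CPM in control and 0.901 CPM in IHG offspring, was 2.51-fold lower (1.81 to 3.55). Cxcl10, at 2.12 and 0.192 CPM, was 11.1-fold lower (5.86 to 23.5), and 95 of its UMIs in control offspring came from the 7 cells named above. Ifit1, at 7.19 and 3.62 CPM, was 1.98-fold lower (1.68 to 2.35). Without the responding cells the core had a log2 ratio of -0.33, against -0.49 with them.

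Alpha-like cells of IHG offspring held 1.64-fold less core (1.44 to 1.86), and delta-like cells 1.28-fold less (1.13 to 1.44). In alpha-like cells 6 members reached 20 CPM, and 0 were higher and 2 lower, against 1.38% and 7.71% over 5786 genes. These were Irf1, at 84.0 CPM in control and 43.2 CPM in IHG offspring (1.95-fold lower, 1.70 to 2.23), and Rsad2, at 20.5 and 10.2 CPM (2.00-fold lower, 1.51 to 2.65). In delta-like cells 8 reached it, with 1 higher and 1 lower, against 4.84% and 6.04% over 6408 genes. Lgals3bp was at 283 and 457 CPM, 1.62-fold higher (1.52 to 1.71), and Cmpk2 at 22.1 and 11.1 CPM, 1.98-fold lower (1.49 to 2.66). The libraries filled different clusters here too, and in the delta cluster both shared the core ratio was -0.12 on the log2 scale (-0.35 to 0.11). In the shared alpha cluster it was -0.40 (-0.62 to -0.19).

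In endothelial-like cells 27 members reached 20 CPM, with 1 higher and 8 lower, against 10.2% higher and 22.4% lower over 7023 genes, and a median log2 ratio of -0.50 against -0.18 over all genes. Irf1 was at 918 CPM in control and 351 CPM in IHG offspring, 2.62-fold lower (2.46 to 2.78). Trim25 was at 128 and 62.5 CPM (2.05-fold lower), Igtp at 53.5 and 25.7 CPM (2.08-fold lower), Irf9 at 148 and 81.8 CPM (1.80-fold lower), and Isg15 at 44.9 and 24.3 CPM (1.85-fold lower); Ifit1, Rtp4 and Eif2ak2 were the others. Within the main endothelial cluster, a comparison added after the values were seen, Irf1 was 2.03-fold lower (1.88 to 2.20) and Trim25 1.74-fold lower (1.40 to 2.16), while the other 6 had ratios under 1.5: Irf9 was at 171 and 132 CPM there and Ifit1 at 38.5 and 27.6 CPM. Further members passed the rule in this cluster: Oasl1 was 2.60-fold lower and Cxcl10 14.5-fold lower. Irf7 was 1.83-fold higher (25.4 and 46.5 CPM, 1.20 to 2.88), Xaf1 1.72-fold and Lgals3bp 1.74-fold higher. The share over all genes in this cluster is not given here. Over the class Lgals3bp was 2.07-fold higher (1.85 to 2.32), at 125 and 258 CPM. The core was 1.29-fold lower (1.22 to 1.37). It depended on which cells were compared: the log2 ratio was -0.37 over the class, -0.01 in the main endothelial cluster (586 and 769 cells) and 0.28 with at most 10% mitochondrially encoded UMIs. Cluster 14 held 568 of the control (48.0%) and 44 of the IHG offspring cells (4.21%), with 585 CPM of core in control offspring. Cluster 19, with 231 IHG and 29 control offspring cells, held 106 CPM of core in IHG offspring and 0 of 180 responding cells. The 9 beta markers summed to 31686 CPM in control and 130254 CPM in IHG offspring endothelial-like cells, and their part in the result was not tested. By CPM 31.2% of all genes past the rule were higher, against 54.5% with size factors and 67.9% without hormone and mitochondrial genes; members were then 1 higher and 6 lower, and 1 higher and 4 lower. These shares were 33.9%, 56.9% and 58.7% in beta-like, 15.2%, 31.9% and 50.3% in alpha-like, and 44.5%, 43.5% and 58.9% in delta-like cells.

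The 2 control libraries were not alike. The core was 1.16-fold lower (1.10 to 1.21) in beta-like and 1.84-fold lower (1.57 to 2.15) in alpha-like cells of the Cre-negative than of the control offspring library, and 2.05-fold higher (1.89 to 2.22) in its endothelial-like cells. Against control offspring the Cre-positive core was 1.86-fold higher (1.79 to 1.93) in beta-like, 1.54-fold higher (1.37 to 1.73) in alpha-like, 2.98-fold higher (2.71 to 3.29) in delta-like and 3.93-fold higher (3.76 to 4.11) in endothelial-like cells.

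The pathway around the set was read from 82 further genes. Of 10 interferon genes (ligands), 2 or 3 had a UMI in a library, with 5, 9, 6 and 7 UMIs over all kept cells; Ifnb1 had 0, 4, 1 and 2 UMIs and Ifng 3, 2, 0 and 0. At this depth the ligands were hardly measured. The type I receptor chain Ifnar1 was at 55.6, 18.6, 18.2 and 14.9 CPM in endothelial-like cells, 2.99-fold lower (1.91 to 4.57) in the Cre pair with the Cre-negative library apart, and at 17.7, 8.81, 7.63 and 6.44 CPM in beta-like cells. Ifnar2 was at 32.8, 32.3, 25.8 and 25.8 CPM in beta-like cells. Of 6 receptor genes 0 were higher and 3 lower in the Cre-positive endothelial-like cells (Ifnar1, Ifngr1 and Il10rb), 0 and 2 in alpha-like (Ifnar1 and Ifnar2), 1 and 2 in macrophage-like cells (Il10rb higher, Ifnar1 and Ifngr1 lower), and 0 and 0 in beta-like and delta-like cells. Over all genes 14.7% were higher and 29.9% lower in endothelial-like, 4.70% and 37.9% in alpha-like, and 18.1% and 34.5% in macrophage-like cells. The shares were 6.93% and 20.4% in beta-like and 9.29% and 13.6% in delta-like cells. Under the level were 1 of the 6 receptor genes in endothelial-like, 4 in alpha-like, 1 in macrophage-like, and 5 each in beta-like and delta-like cells.

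Among the kinases and factors, Stat3, which serves cytokines of the interleukin-6 family, was 1.5-fold higher (1.42 to 1.58) in beta-like and 3.09-fold higher (2.52 to 3.81) in endothelial-like cells. The kinase Tyk2 was at 37.7 and 10.9 CPM in endothelial-like cells, 3.46-fold lower (1.97 to 5.89), while Jak1 was at 246 and 262 CPM. Irf8, a factor of blood cell lineages, was at 8.97, 80.8, 78.5 and 21.9 CPM in endothelial-like cells, low in the Cre-negative library. In the offspring pair Jak1, Jak2, Stat3 and Irf8 were lower in IHG endothelial-like cells, Stat3 by 2.15-fold (1.96 to 2.35). The feedback inhibitor Socs3 was 2.11-fold higher (1.88 to 2.38) in Cre-positive beta-like cells, and in IHG offspring 1.86-fold lower (1.42 to 2.43) in alpha-like and 2.42-fold lower (2.19 to 2.67) in endothelial-like cells. Socs1 was 3.23-fold lower (1.99 to 5.13) in Cre-positive endothelial-like cells.

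Of 43 other induced genes, 7 reached 20 CPM in the Cre pair of beta-like cells, and 2 were higher and 2 lower with Cre, against 6.93% and 20.4% of all genes. Alpha-like cells had 3 and 1 (34 of the 43 under the level, against 4.70% and 37.9% of all genes). Delta-like cells had 5 and 1 (31 under it, against 9.29% and 13.6%). Endothelial-like cells had 14 and 3 (8 under it, against 14.7% and 29.9%) and macrophage-like cells 20 and 1 (10 under it, against 18.1% and 34.5%). In beta-like cells B2m, the light chain of class I molecules, was at 18.3, 53.4, 31.3 and 23.5 CPM, 2.92-fold higher (2.66 to 3.21), and H2-D1 was 1.55-fold higher (1.51 to 1.59), while Parp12 (1.84-fold) and Ly6e (1.80-fold) were lower. Ube2l6, the enzyme that conjugates Isg15, was higher in alpha-like (1.76-fold), delta-like (1.56-fold), endothelial-like (2.26-fold) and macrophage-like cells (3.86-fold, 1.62 to 12.0). Ifit3b was 2.08-fold higher in delta-like, 7.13-fold in endothelial-like and, from 0 UMIs, at least 3.39-fold in macrophage-like cells. In endothelial-like cells H2-K1 was 1.58-fold lower (1.47 to 1.70), at 1639 and 1036 CPM, while Psmb8, a subunit of the immunoproteasome, was 1.78-fold higher (1.43 to 2.24). In the offspring pair 36 of the 43 were under the level in beta-like and 15 in endothelial-like cells. In beta-like cells 0 were higher and 0 lower, against 0.382% and 0.747% of all genes. Alpha-like cells had 0 and 1 (Cd274), against 1.38% and 7.71%, and delta-like cells 1 and 0 (Ube2l6), against 4.84% and 6.04%. In endothelial-like cells 0 were higher and 6 lower (Ifi47, Irgm1, Irgm2, Tap1, Slfn5 and Cd274), against 10.2% and 22.4% of all genes. Irgm1, a GTPase induced by interferon-gamma, was at 253 and 84.7 CPM there, 2.99-fold lower (2.64 to 3.39).

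Pathway genes were also read in the responding cells. In Cre-positive beta-like cells Ifit3b was 11.9-fold, Irgm1 4.34-fold and Ube2l6 3.32-fold higher in responding than in remaining cells. They were picked after the values were seen and do not stand for all 82 genes. Socs3 was 2.62-fold lower (1.12 to 8.10), and H2-K1 and H2-D1 had ratios of 1.00 and 1.12 with intervals that hold 1. Ifit3, a core gene that marked these cells, may share reads with Ifit3b, so the Ifit3b ratio is not free of the marking. These ratios rest on 39 cells.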

How the data were processed

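Single-cell 3′ RNA libraries of islet cells were made with a SeekOne MM kit, per the labels' protocols. The values used are the UMI counts per gene and cell that the authors deposited, which are whole numbers without normalization. The submitters' processing notes name Cell Ranger, Seurat and mm10, without a role or version. Which aligner, annotation, strand setting and barcode filter were used was not given in the sources used here. Samples were grouped by their labels, with 1 library per group, which allows no test between groups, and intervals cover counting error only.

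Cells needed 500 genes or more and no more than 20% mitochondrially encoded UMIs, and the highest 6% of Scrublet doublet scores were removed in every library. The 4 libraries were clustered together (scanpy 1.11.5, leidenalg 0.10.2, 2000 variable genes, 30 components, 15 neighbours, resolution 1) without interferon-related and mitochondrially encoded genes, and classes were named from 16 marker lists. Counts were summed per class and library and scaled to CPM. Ratios have exact conditional binomial 95% intervals, shares exact binomial (Clopper-Pearson) and sums exact Poisson intervals (scipy 1.17.1). A count of 0 was set to 3 UMIs to give a bound. A gene was counted as higher or lower at 1.5-fold or more with 20 CPM in at least 1 library. Marked cells have 3 or more core genes at 2000 UMIs.

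All 41 members are accounted for. Those named with values in every library are the members past this rule in beta-like cells, and in each role group the member with the most UMIs over all cells. Pathway genes are named where they are ligands, receptors, kinases or factors at 5 CPM or more, or pass the rule. Members or genes beyond these were named after their values were seen. The members and lists were chosen with earlier results of these data known. The libraries shared 58 to 246 cell barcodes between pairs. The scripts were tested on simulated data. Alternatives covered scaling, the level, the fold, doublets, clustering, mitochondrial share, thinning and the cut on core genes. Those within shared clusters and at 8000 UMIs were added after seeing the data. Of the 82 pathway genes 1 is not reported here.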

Additional observations from a re-analysis of the deposited data

Results flagged for a closer look

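Cmpk2, Eif2ak2 and Trim25 lay on opposite sides in different cell classes of the Cre comparison, and the difference between classes was not tested, since each group is 1 library. Cmpk2 had a log2 ratio of 1.20 in endothelial-like cells and of -1.15 in beta-like and -0.64 in delta-like cells. Eif2ak2 had a log2 ratio of 0.98 in endothelial-like and of -0.90 in alpha-like cells. Trim25 had a log2 ratio of 0.87 in macrophage-like and of -0.85 in beta-like cells.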

How the results depend on the processing

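No paired analysis was possible because each group has 1 library, and for the same reason no replicate could be left out. Of 128 alternatives to the main results 78 kept direction and size, 45 moved and 5 reversed. The cause of each move was not tested. In Cre-positive beta-like cells 5 members were higher, but 9 without hormone and mitochondrially encoded genes in the total, 11 with a level of 5 CPM and 22 with none; 2 were lower, but 1 at 2-fold. In IHG beta-like cells 0 were lower, but 1, 3 and 11 under the first 3 settings. Over all genes, leaving hormone and mitochondrial genes out moved the higher count of the Cre pair from 448 to 689. The lower count of the IHG pair moved from 41 to 45. Counts over all genes at the other levels are not given here, so these changes describe the settings and not the members. On the log2 scale the sum of all 41 in the Cre pair of beta-like cells (0.15) was 0.33 with size factors, 0.22 without hormone and mitochondrial genes, 0.41 with each library clustered alone, 0.21 at 10% mitochondrial UMIs, 0.19 without cells holding other markers, 0.10 thinned, 0.10 without responding cells and 0.98 in the shared cluster. In the IHG pair (-0.05) it reversed to 0.02, 0.04 and 0.03 under the first 3 of these and was -0.01 without responding cells; in endothelial-like cells it reversed to 0.03 at 10% mitochondrial UMIs. The core in the Cre pair of beta-like cells (1.11) was 1.29 with size factors, 1.18 without hormone and mitochondrial genes, 1.23 at 10% mitochondrial UMIs, 0.97 without responding cells and 1.94 in the shared cluster; in endothelial-like cells (0.94) it was 1.14 with size factors and reversed to -0.12 without responding cells. The core in the IHG pair of beta-like cells (-0.49) was -0.42 with size factors, -0.41 without hormone and mitochondrial genes, -0.33 without responding cells and -0.29 in the shared cluster. In endothelial-like cells (-0.37) it was -0.19 with size factors, -0.08 without hormone and mitochondrial genes, -0.20 with no doublets removed, -0.12 without cells holding other markers, -0.23 thinned, -0.27 without responding cells, -0.01 in the shared cluster, and reversed to 0.28 at 10% mitochondrial UMIs. The responding share of Cre-positive beta-like cells (1.56%) was 5.35% with 2 core genes, 0.479% with 4, 0.466% at 1000 UMIs, 5.37% at 4000, 13% at 8000 and 16.8% unthinned. That of endothelial-like cells (33.1%) was 46.7% with 2, 27% with 4, 23.8% at 1000 and 49.4% at 4000 UMIs. The log2 ratio of the 23 other genes in responding endothelial-like cells (1.99) was 1.70 with 2 and 2.14 with 4. Thinning to 2000 UMIs left out 837 of 1740 Cre-positive endothelial-like and 102 of 2609 beta-like cells, and the Cre-negative library has 59 macrophage-like cells. Cells left out by the thinning stayed in the sums without responding cells.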

Other observations

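Genes outside the set were read in the responding cells of the Cre-positive library, chosen after the values were seen. Of 4753 genes measured in both endothelial-like and macrophage-like cells, 218 were 1.5-fold or more higher in responding than in remaining cells of both classes. The 15 core genes among them had chosen the cells and are higher by construction. Of the 75 other genes of the interferon lists 58 were higher in both, and of the 4663 genes outside the lists 145, and 106 genes were lower in both. In endothelial-like cells alone 7.36% of genes were higher and 6.21% lower, and in macrophage-like cells 16.6% and 18.4%. Phf11b was at 94.2 CPM in responding and 5.59 CPM in remaining endothelial-like cells (16.8-fold), and at 503 and 32.1 CPM in macrophage-like cells (15.6-fold). Ifi202b, of the DNA-binding family of Ifi204, was at 94.2 and 4.20 CPM (22.4-fold) and at 339 and 36.5 CPM (9.29-fold). Tgtp2, a GTPase, was at 226 and 21.9 CPM in endothelial-like cells (10.3-fold). Sp110, a nuclear body protein, was 8.44-fold and 7.66-fold higher. Isg20, an exonuclease, was 7.19-fold higher in responding endothelial-like and 11.4-fold in macrophage-like cells, while in beta-like cells it was at 157 CPM in both sets.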
